A study of Rattus norvegicus with 6 samples.

Results

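The transcripts of 38 lysosomal genes were measured in 3 rupture-prone intracranial aneurysm (IA) lesions and in what remained of the circle of Willis, the control artery, of each rat. The genes encode lysosomal hydrolases with their activator proteins, proteins of the lysosomal membrane and regulators of the lysosome, without the cathepsins. They were chosen by symbol, with earlier results of these data known, and all 38 were found among the 22081 genes of the deposited table. The animals were female Sprague Dawley rats, 10 weeks old at purchase, that had undergone bilateral ovariectomy and ligation of the left carotid, right external carotid, right pterygopalatine and left renal arteries. They were then given salt-rich chow with 3-aminopropionitrile, an inhibitor of lysyl oxidase. Both tissues of an animal had this whole treatment. They were taken at day 63 by the extraction protocol, whereas the study's animal methods assign RNA sequencing to an earlier day. Thus the control artery was from a treated, hypertensive animal and not from an untreated one. The lesions were unruptured and lay at the anterior or posterior communicating artery. The study states that nearly all animals of this model also form aneurysms, which do not rupture, where the anterior cerebral and olfactory arteries part. Whether the control arteries held such aneurysms is not stated, so they cannot be taken as free of them. A lesion and the circle of Willis of 1 animal make up 1 pair (n = 3 pairs).

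Lysosomes are acidic compartments in which soluble hydrolases break down glycosaminoglycans, glycoproteins, sphingolipids, glycogen, cholesterol esters and proteins that reach them by endocytosis, phagocytosis or autophagy. Most of the hydrolases are carried there by receptors for mannose 6-phosphate, while heavily glycosylated membrane proteins line the compartment and export its products. Transcription factors of the MiT/TFE family (Tfeb, Tfe3 and Mitf) bind E-box motifs near the start of many of these genes and can raise their expression together. Macrophages, which clear lipid and matrix debris in diseased arteries, are rich in lysosomes.

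The libraries held between 65823027 and 70705938 counts assigned to genes, and the 38 genes had between 133 and 309964 counts each in a library, so that none was near the limit of detection. Values are given as counts scaled to library size by TMM normalization (normalized CPM) for comparing 1 gene between libraries, and as TPM, which are also scaled by gene length, for comparing genes. Smooth muscle markers were present in every library, with Acta2 between 938 and 4239 normalized CPM. Their summed level had ratios of lesion to circle of Willis of 0.799, 1.397 and 0.184 in animals 1, 2 and 3. Marker lists of cells other than those of the arterial wall also differed between single libraries. The summed myelin markers were 11.1-fold and the choroid plexus markers 49.4-fold higher in the lesion of animal 2 than in its circle of Willis. Most of that choroid plexus sum was Ttr, at 5636 of 5775 normalized CPM in the lesion. Kl, Folr1 and Clic6 were also higher in this lesion, and Kcnj13 was lower with a log2 ratio of -1.40. In the myelin list only Cldn11 was lower there, at -0.24.

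Most lysosomal genes had higher levels in the lesions, by the widest margin in animal 3. Of the 38 genes, 32 had a mean log2 ratio of lesion to circle of Willis above 0 and 6 below it. The ratio was above 0 in each of 3 animals for 23 genes (60.5%), where 22.6% of all 15367 genes tested did so, and below 0 in each for 3 genes, where 27% of all genes did so. The median log2 ratio of the 38 genes was 0.19, 0.29 and 0.93 in animals 1, 2 and 3, beside 0.00, -0.05 and -0.04 for all genes tested. The median of the mean ratios was 0.51, against -0.03 over all genes. Since the genes were chosen with earlier results of these data known, these shares and medians are a description and no test of the set.

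No lysosomal gene passed the main test of lesion against circle of Willis. The quasi-likelihood test of edgeR, blocked by animal and adjusted by Benjamini-Hochberg over all 15367 genes, called 0 of the 38 genes at an adjusted p under 0.05, as it called 0% of all genes. The adjusted p of the 38 genes lay between 0.185 and 0.971. At an unadjusted p under 0.05 it held 14 of the genes as higher, beside 8.63% of all genes, and 2 as lower, beside 12% of all genes. Without animal 2 or without animal 3 the number higher was 4, and the share of all genes was not computed there. DESeq2 with the same block called 10 of the genes higher at an adjusted p under 0.05, beside 5.48% of all genes, and 1 lower, beside 6.5%. In the following, the ratios are therefore given as measured values with their standard error over 3 animals.

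**Figure D1:**
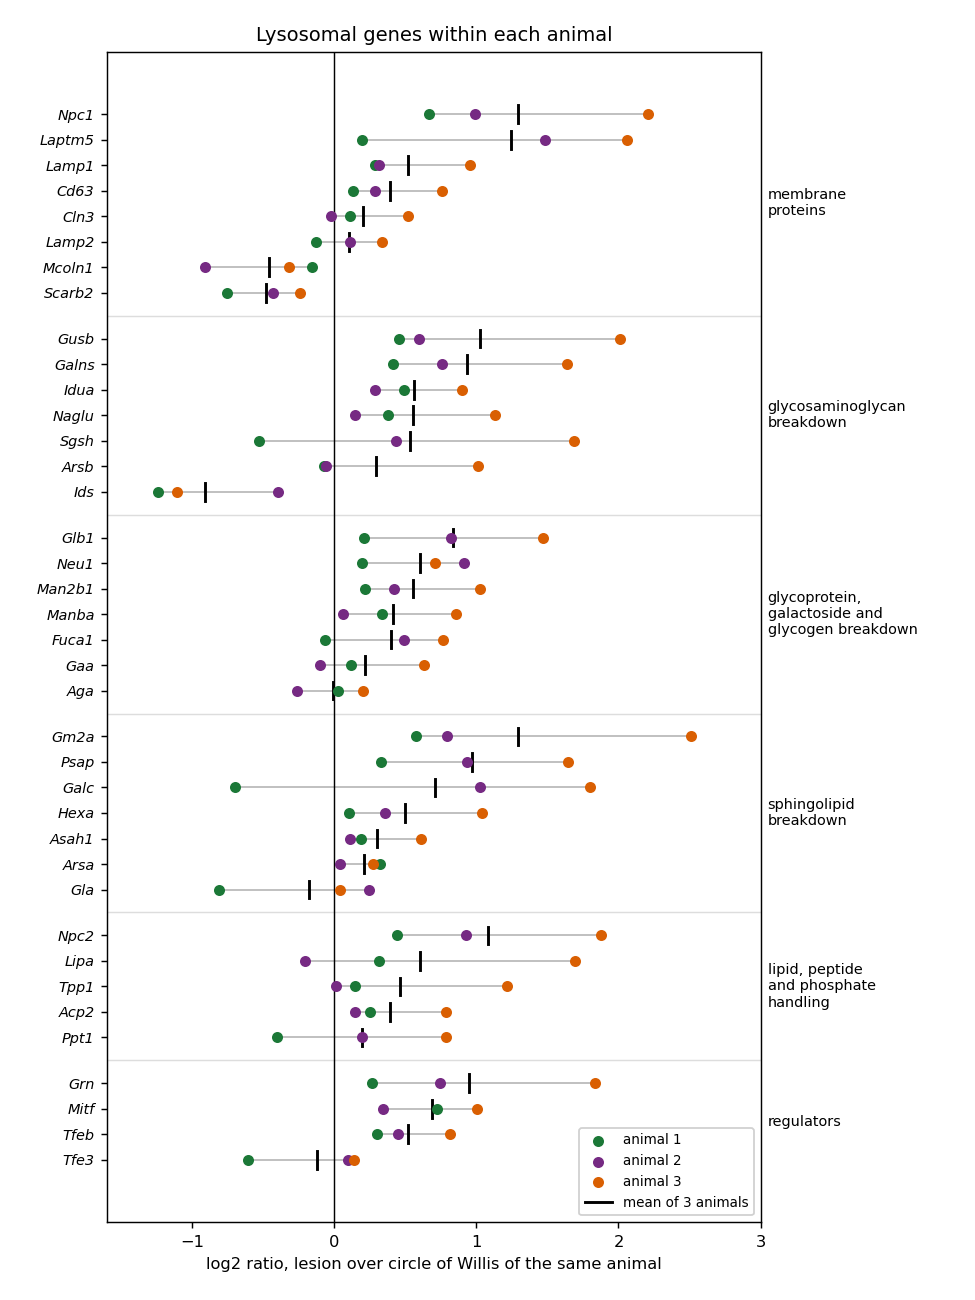
Log2 ratio of lesion to circle of Willis of the same animal (horizontal axis) for each of the 38 lysosomal genes, grouped by role. Points are animals and the black bar is their mean. Animal 3 held the largest ratio for 33 of the 38 genes, and Scarb2, Mcoln1 and Ids lay below 0 in all 3 animals.

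The 38 genes together made up the largest part of the transcriptome in the lesion of animal 3. Their summed TPM was 4606, 6805.5 and 10216 in the lesions of animals 1, 2 and 3 and 4284, 4651 and 4032 in the circle of Willis. The lesions of animals 2 and 3 thus lay above every control artery, and the lesion of animal 1 lay between the control arteries of animals 1 and 2. The ratio within an animal was 1.08, 1.46 and 2.53. Psap alone, the precursor of the saposins, held 21.5%, 22.7% and 25.1% of the sum in the lesions and between 16.7% and 20.4% in the circle of Willis, and without it the ratios were 1.055, 1.36 and 2.38. In the circle of Willis the highest mean TPM were those of Psap (818), Cd63 (734), Npc2 (432) and Lamp1 (395), and the lowest those of Sgsh (4.63), Galc (3.50) and Mitf (3.14).

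**Figure D2:**
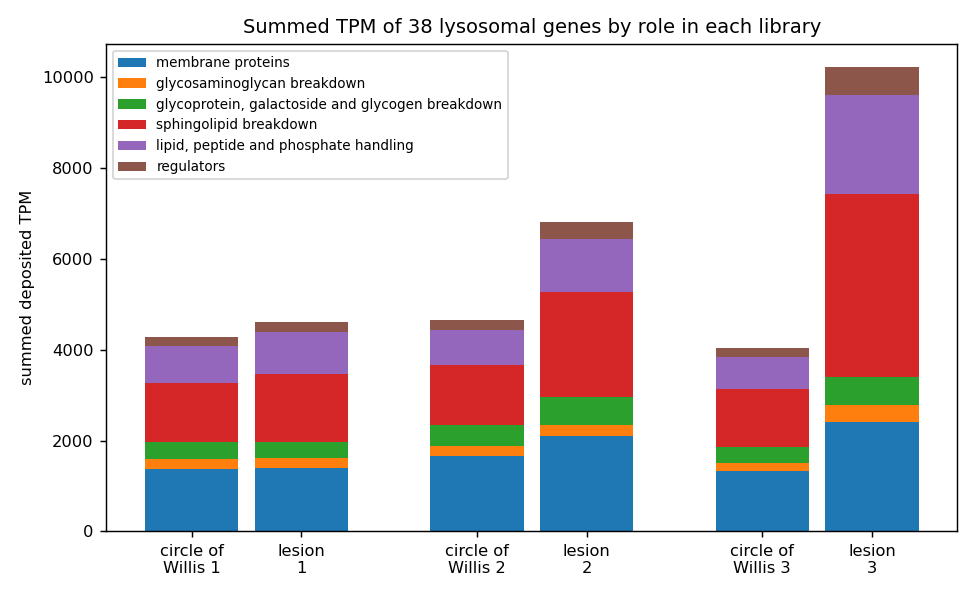
Summed TPM of the 38 lysosomal genes (vertical axis) in each of the 6 libraries, stacked by role, with the circle of Willis and lesion of 1 animal side by side. The sum was 10216 in the lesion of animal 3 and between 4032 and 4651 in the control arteries.

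Among the 8 membrane proteins, the cholesterol transporter Npc1 and the leukocyte protein Laptm5 had the highest ratios, whereas Scarb2 and Mcoln1 were lower in each lesion. Npc1, which passes cholesterol from the lysosomal lumen to the membrane, lies on chromosome 18 of Rnor6 from 3616878 to 3662683. Its normalized CPM was 47.0, 61.3 and 136 in the lesions of animals 1, 2 and 3 and 29.6, 30.8 and 29.4 in the control arteries. The control arteries were close together and all lesions lay above them. Its mean log2 ratio was 1.29 (standard error 0.47, edgeR quasi-likelihood adjusted p = 0.198). Npc1 was the only 1 of the 38 genes over 1.5-fold higher in each of 3 animals, a rule met by 2.75% of all genes tested, and none was over 1.5-fold lower in each, a rule met by 5.51%.

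Laptm5, a lysosomal membrane protein of blood cells, lies on chromosome 5 from 149047681 to 149069719. The lesions had 171, 200 and 511 normalized CPM, and 149, 71.7 and 122.8 were measured in the control arteries. In animal 1 both tissues were nearly alike, with a log2 ratio of 0.19, whereas the ratios were 1.48 and 2.06 in animals 2 and 3 (mean 1.24, standard error 0.55). Cd63, a tetraspanin of late endosomes and exosomes, had 593, 767 and 777 in the lesions and 542, 629 and 460 in the control arteries. The groups overlapped, and the mean log2 ratio was 0.39 (standard error 0.19). Lamp1, a main glycoprotein of the lysosomal membrane, was higher in all lesions, at 868 to 1502 against 713 to 776 normalized CPM, while its relative Lamp2 had a mean log2 ratio of 0.10 (standard error 0.14). Cln3, whose loss causes juvenile Batten disease in people, had 0.20 (standard error 0.16).

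Scarb2, the membrane receptor that carries beta-glucocerebrosidase to the lysosome, lies on chromosome 14 from 17064353 to 17115963. The lesions had 36.8, 76.0 and 62.8 normalized CPM, against 62.4, 103 and 74.3 in the control arteries. Each lesion was below its own control artery although the groups overlapped, and the mean log2 ratio was -0.48 (standard error 0.15, edgeR quasi-likelihood adjusted p = 0.212). Mcoln1, the calcium channel of the lysosomal membrane, lies on chromosome 12 from 2054680 to 2068682 and had 55.4, 44.3 and 43.1 in the lesions and 61.8, 83.5 and 53.9 in the control arteries. It too was lower within each animal, with a mean log2 ratio of -0.46 (standard error 0.23).

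Of the 7 enzymes that break down glycosaminoglycans, the chains of matrix proteoglycans, 6 had a mean ratio above 0 and the row named Ids was below 0. Gusb, the beta-glucuronidase, was highest with a mean log2 ratio of 1.02 (standard error 0.50), and its lesions, at 53.8 to 153 normalized CPM, lay above all of its control arteries. Galns, a sulfatase of keratan and chondroitin sulfate, had 0.94 (standard error 0.37), and Idua, the alpha-L-iduronidase, had 0.56 (standard error 0.18). In both, all lesions lay above all control arteries. Naglu, an enzyme of heparan sulfate breakdown, had 0.55 (standard error 0.30), and Arsb, which removes sulfate from dermatan sulfate, had log2 ratios of -0.07, -0.06 and 1.01 in animals 1, 2 and 3.

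Sgsh, the heparan N-sulfatase, showed how the animals differed. Its normalized CPM was 2.03, 4.62 and 6.83 in the lesions and 2.95, 3.41 and 2.10 in the control arteries. The log2 ratios of -0.53, 0.43 and 1.69 went from below to above 0 among the animals.

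Ids, the iduronate 2-sulfatase by the description in the table, lies in Rnor6 on chromosome 8 from 69449801 to 69466618, whereas RefSeq places Ids on chromosome X of GRCr8, so that the identity of this row is uncertain. This row had 12.2, 28.0 and 16.9 normalized CPM in the lesions, against 29.0, 36.8 and 36.4 in the control arteries. All lesions lay below all control arteries, and the mean log2 ratio of -0.92 was the lowest of the 38 genes (standard error 0.26, edgeR quasi-likelihood adjusted p = 0.185). With no overlap between the groups, 13 of the 38 genes were above in all lesions, beside 10.3% of all genes tested, and Ids was the only 1 below, beside 11.6%.

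Of the 7 genes for the breakdown of glycoproteins, galactosides and glycogen, 6 had a mean ratio above 0. Glb1, the beta-galactosidase, had 0.83 (standard error 0.36), from 0.21 in animal 1 over 0.82 in animal 2 to 1.47 in animal 3. Neu1, the lysosomal sialidase, had 0.61 (standard error 0.21) and was the highest in animal 2, where its log2 ratio was 0.91, and its lesions did not overlap with the control arteries. Man2b1 and Manba, mannosidases of glycoprotein breakdown, had 0.55 (standard error 0.24) and 0.42 (standard error 0.23). Fuca1, a fucosidase, had 0.40 (standard error 0.24) and Gaa, which breaks down glycogen, had 0.22 (standard error 0.22). Aga, which splits the bond between asparagine and the sugar chain, had -0.01 (standard error 0.14), the value nearest to 0 among the 38 genes.

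Among the 7 genes of sphingolipid breakdown, the activator proteins stood above most of the enzymes. Gm2a, the activator that presents ganglioside GM2 to the enzyme, lies on chromosome 10 from 40438356 to 40450930. Its normalized CPM was 360, 364 and 1335 in the lesions and 242, 210 and 234 in the control arteries. The lesion of animal 3 stood far above the others, with a log2 ratio of 2.51, and all lesions were above the control arteries. The mean log2 ratio was 1.29 (standard error 0.61, edgeR quasi-likelihood adjusted p = 0.228). The ratio of 1.49 in animal 1 left Gm2a just short of the rule of 1.5-fold in each animal.

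Psap, whose saposins assist several sphingolipid hydrolases, lies on chromosome 20 from 29831314 to 29856875. Psap had 1865, 2449 and 4427 normalized CPM in the lesions, against 1483, 1283 and 1415 in the control arteries. Again the control arteries were alike and all lesions higher, with a mean log2 ratio of 0.97 (standard error 0.38, edgeR quasi-likelihood adjusted p = 0.22). The enzymes Hexa (beta-hexosaminidase alpha chain), Asah1 (acid ceramidase) and Arsa (arylsulfatase A) had 0.50, 0.30 and 0.21, each above 0 in 3 of 3 animals. Gla, the alpha-galactosidase A, had log2 ratios of -0.81, 0.24 and 0.04.

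Galc, the galactosylceramidase that breaks down a main lipid of myelin, had the widest range over the animals. The lesions had 3.25, 11.4 and 21.6 normalized CPM, against 5.29, 5.56 and 6.17 in the control arteries, with log2 ratios of -0.70, 1.026 and 1.80. The lesion of animal 1 was below every control artery and the other lesions above every one. The summed myelin markers had ratios of 2.00, 11.1 and 1.15 in animals 1, 2 and 3, and their part in the Galc values was not tested.

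Of the 5 remaining hydrolases and carriers, Npc2, the soluble partner of Npc1 in cholesterol export, had the highest ratio. It lies on chromosome 6 from 108467410 to 108488330, and its normalized CPM was 566, 577 and 1324 in the lesions and 416, 304 and 361 in the control arteries. All lesions lay above all control arteries, with a mean log2 ratio of 1.08 (standard error 0.42, edgeR quasi-likelihood adjusted p = 0.208). Lipa, the acid lipase that frees cholesterol from its esters, had log2 ratios of 0.31, -0.21 and 1.70. The lysosomal peptidase Tpp1 had a mean of 0.46 (standard error 0.38) and the thioesterase Ppt1 0.19 (standard error 0.34). Acp2, the lysosomal acid phosphatase, had 0.39 (standard error 0.20) without overlap of the groups.

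**Figure D3:**
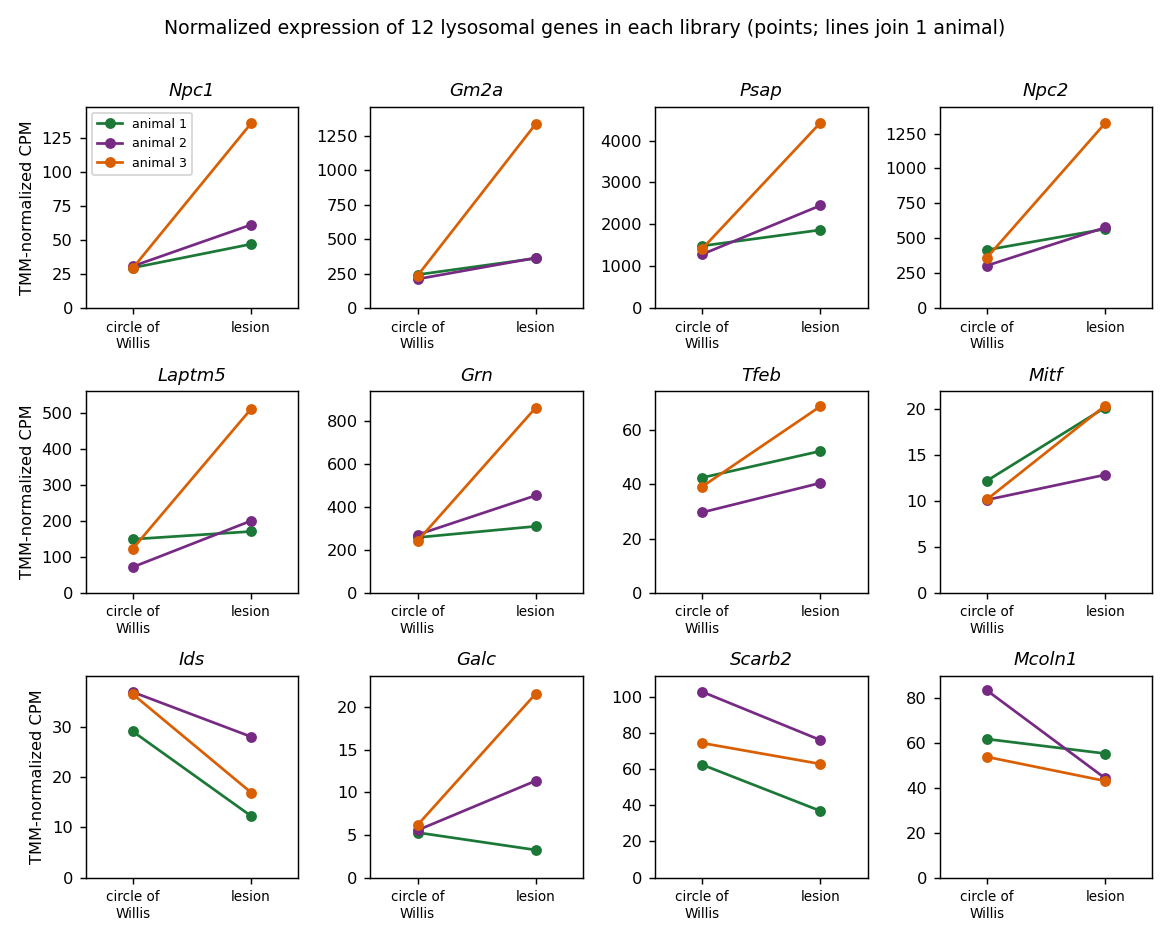
Normalized CPM (vertical axes, from 0) of 12 lysosomal genes in the control arteries and lesion of each animal, with lines joining the tissues of 1 animal. In Npc1, Gm2a, Psap, Npc2, Laptm5, Grn and Mitf all lesions lay above all control arteries, and in Ids all lay below.

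The regulators Grn, Mitf and Tfeb were higher in each lesion, and Tfe3 was not. Grn encodes progranulin, a secreted and lysosomal protein that is needed for lysosome function, and lies on chromosome 10 from 90376933 to 90383205. Grn had 310, 453 and 862 normalized CPM in the lesions, against 258, 270 and 241 in the control arteries, without overlap, and the mean log2 ratio was 0.95 (standard error 0.46). Mitf, the MiT/TFE factor of melanocytes and osteoclasts, lies on chromosome 4 from 130172727 to 130425532. It had 20.1, 12.8 and 20.3 in the lesions and 12.2, 10.1 and 10.1 in the control arteries, again without overlap, and a mean log2 ratio of 0.69 (standard error 0.19, edgeR quasi-likelihood adjusted p = 0.203). In contrast to most of the other genes, its lesions of animals 1 and 3 were alike.

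Tfeb, the factor best known for control of lysosomal genes, lies on chromosome 9 from 15207822 to 15214596. It had 52.3, 40.5 and 68.8 in the lesions and 42.5, 29.7 and 39.2 in the control arteries, so that each lesion was above its own control artery while the groups overlapped. The mean log2 ratio was 0.52 (standard error 0.15). Tfe3, on chromosome X from 15575934 to 15587419, had 12.2, 21.1 and 20.5 in the lesions and 18.7, 19.8 and 18.6 in the control arteries. The lesion of animal 1 was low and the other libraries alike, with a mean log2 ratio of -0.13 (standard error 0.24). The level of these mRNAs does not show the activity of the factors, which is set largely by their passage into the nucleus.

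The sequence before the annotated start was searched for motifs of the MiT/TFE factors, because most of the genes were higher in each lesion and the factors themselves are among them. RefSeq sequences from 250 bases before to 50 bases after the start (build GRCr8) were found for 32 of the 38 genes, and 31 of these lay on the same chromosome as in the deposited table, Ids being the exception. No entry was matched for Hexa, Ppt1, Arsb, Psap, Asah1 and Arsa. The core E-box CACGTG was found in 9 of the 32 windows (28.1%) and in 6.42% of all 33469 windows of the same length. Its longer palindrome TCACGTGA, which holds the core E-box, was found in 4 of 32 (12.5%) against 0.777%. TCACATGA, a motif of the M-box type bound by Mitf, was found as such or as its reverse complement TCATGTGA in 4 of 32 against 1.16%. All of these motifs were searched on both strands. E-boxes are known near the start of many lysosomal genes, so the larger shares follow from the choice of genes. They carry no information on the lesions. The following stretches, which lie before the start, are shown because they hold the most or the longest matches or belong to genes named above, with each match in capitals.
Lamp1 (GRCr8 chr16:83075084-83075253, minus strand): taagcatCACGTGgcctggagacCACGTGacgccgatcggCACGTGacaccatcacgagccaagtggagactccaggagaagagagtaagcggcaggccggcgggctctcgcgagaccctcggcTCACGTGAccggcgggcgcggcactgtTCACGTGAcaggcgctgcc
Cln3 (GRCr8 chr1:190597950-190598019, minus strand): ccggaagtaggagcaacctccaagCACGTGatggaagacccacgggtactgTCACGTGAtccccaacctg
Galc (GRCr8 chr6:123245560-123245619, minus strand): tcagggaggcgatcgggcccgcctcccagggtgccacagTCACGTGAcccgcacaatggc
Tpp1 (GRCr8 chr1:169515940-169515999, minus strand): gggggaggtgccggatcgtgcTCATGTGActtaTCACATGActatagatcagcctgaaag
Glb1 (GRCr8 chr8:122963598-122963647, plus strand): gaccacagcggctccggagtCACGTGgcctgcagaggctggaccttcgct
Cd63 (GRCr8 chr7:1921944-1922043, plus strand): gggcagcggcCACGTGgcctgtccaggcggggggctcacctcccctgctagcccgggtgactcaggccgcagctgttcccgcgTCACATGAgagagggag

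In the Lamp1 stretch the capitals mark 5 core E-boxes, of which those that begin at -66 and -39 are in the TCACGTGA form. In Galc they mark a TCACGTGA that begins at -21. In Cln3 a core E-box stands at -66 and a TCACGTGA at -39, in Tpp1 2 matches of the M-box type begin at -39 and -27, and in Cd63 an E-box at -190 and an M-box type at -117. For Lamp1, Cln3, Galc and Cd63 the start used lies inside the gene, since another annotated transcript begins farther upstream.

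Levels were then set beside these matches, as a description. The 9 genes with a core E-box had a median log2 ratio of 0.52 and the 23 without it 0.55. The medians were 0.36 for the 4 genes with TCACGTGA and 0.54 for the 28 without it, and 0.70 for the 4 genes with TCACATGA and 0.53 for the 28 without it. None of these differences was tested. Npc1, Gm2a, Npc2 and Laptm5, with the highest ratios, had no match of any of these letters in the window. Grn, Galns, Glb1 and Galc, with mean log2 ratios of 0.95, 0.94, 0.83 and 0.71, held a match, and Psap had no window. Mcoln1, with an E-box at -22 and a TCACGTGA at 4, was lower in each lesion. A match shows the letters only, not that a factor was bound.

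**Figure D4:**
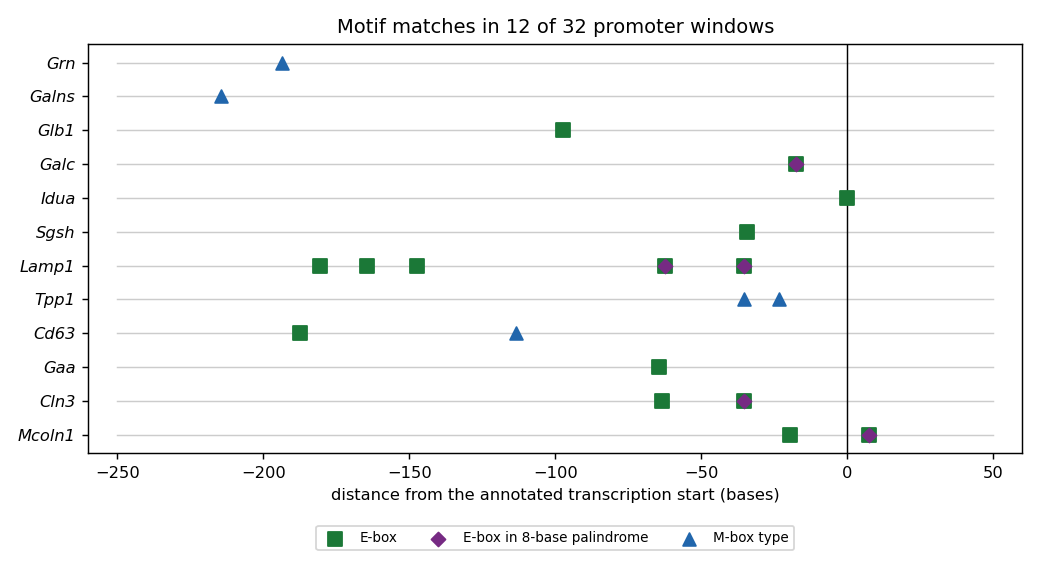
Position of motif matches (horizontal axis, bases from the annotated start at 0) in the 12 of 32 windows that held any, ordered from the highest mean log2 ratio (Grn) to the lowest (Mcoln1). Symbols mark the core E-box, its longer palindrome and the M-box type, and Lamp1 holds 5 E-boxes.

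The lesions differed from each other more than the control arteries did. The highest lesion was a median of 1.93-fold above the lowest for the 38 genes, against 1.32-fold in the circle of Willis, and the lesions were the more spread in 34 of 38 genes. Over 15193 genes with a count in every library these values were 1.66 and 1.37, and the lesions were more spread in 72.3% of them. In animal 1, 2 of the genes were over 1.5-fold higher, beside 8.51% of all genes, and 5 over 1.5-fold lower, beside 17.5%. In animal 2, 11 were higher, beside 18.6%, and 1 lower, beside 18.7%. In animal 3, 29 were higher, beside 17.8%, and 1 lower, beside 24.6%. The ratio of animal 3 was the largest of the 3 animals for 33 genes, where this held for 33.1% of all genes. Within an animal each tissue is 1 library, so that these counts carry no estimate of error.

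Marker lists of several cell types differed between the tissues, by ratios that varied among the animals. The summed level of 15 macrophage markers, which include Csf1r, Tyrobp and C1qa, was between 1491 and 3999 normalized CPM in the lesions and between 993 and 1491 in the circle of Willis, and none of them was at 0 in a library. Its ratios were 1.00, 2.23 and 2.78 in animals 1, 2 and 3, and 13 of 15 markers had a mean log2 ratio above 0, the others being Mrc1 at -0.07 and Cd163 at -1.23 (log2). The markers of lipid-laden macrophages had ratios of 3.49, 7.53 and 11.3, with 12 of 12 above 0, and neutrophil markers 1.34, 18.1 and 6.55, with Fpr1 and Fpr2 at 0 in some libraries. Fibroblast markers had ratios of 1.10, 4.58 and 4.396. Of these, 5 of 7 had a mean log2 ratio above 0, the others being Dcn at -0.52 and Pdgfra at -0.45 (log2). Col1a1 held 12957 of 24004 and 11547 of 18508 normalized CPM of that sum in the lesions of animals 2 and 3. Endothelial markers had ratios of 0.951, 0.497 and 0.473, with 0 of 7 above 0. Arachnoid and meningeal markers had 0.882, 0.212 and 0.293, with 0 of 6 above 0, and their sum was mostly Ptgds, at 12736 to 69794 normalized CPM. The lowest smooth muscle ratio, 0.184, was in animal 3. The part of these cells in the lysosomal values was not tested, and in bulk tissue more cells of a type and more RNA per cell cannot be told apart.

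**Figure D5:**
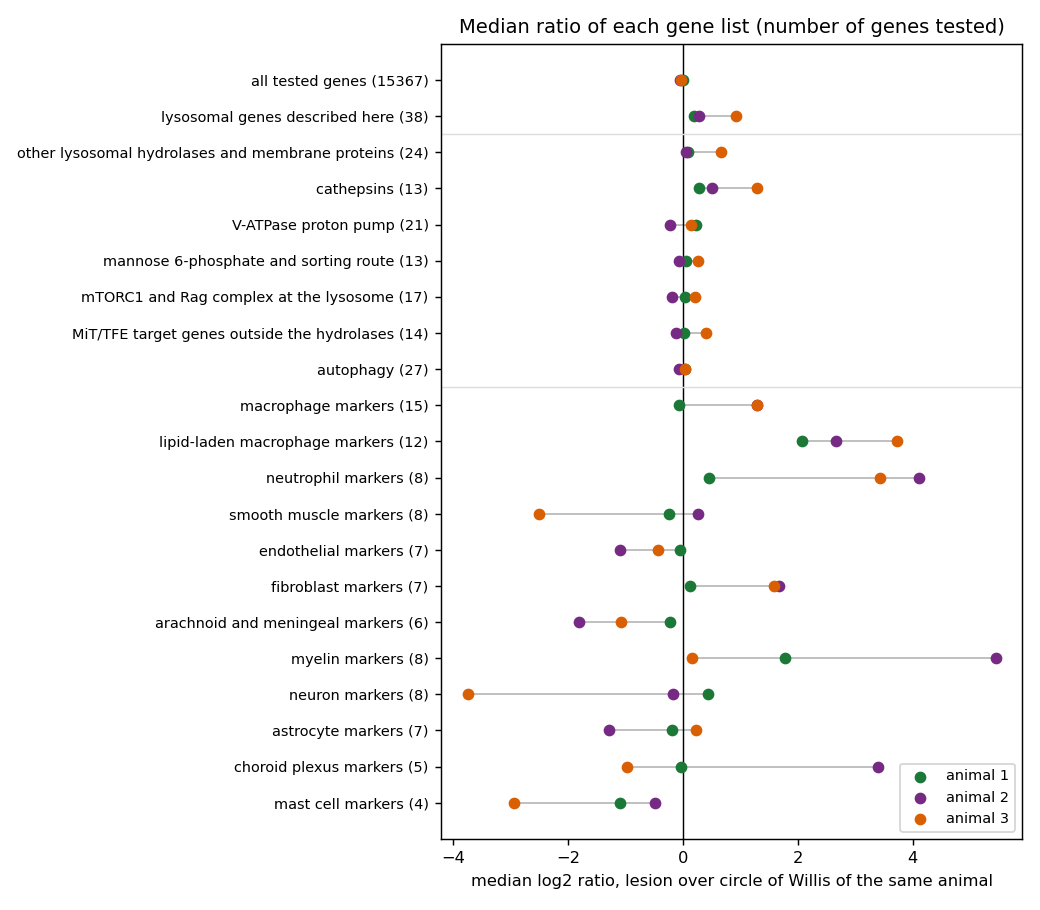
Median log2 ratio of lesion to circle of Willis (horizontal axis) of all genes tested, of the 38 lysosomal genes, of 7 related gene lists and of 12 cell type marker lists in each animal, with the number of genes tested in brackets. The lysosomal genes lay at 0.19, 0.29 and 0.93, and the autophagy list at 0.04, -0.07 and 0.04.

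Related gene lists were counted in the same fit, where an unadjusted p under 0.05 held 8.63% of all genes as higher and 12% as lower, and 2.75% were over 1.5-fold higher in each animal. The differences between the lists were not tested. Of 24 other lysosomal hydrolases and membrane proteins, 19 had a mean ratio above 0, 7 had an unadjusted p under 0.05 with edgeR, all of them higher, and 5 were over 1.5-fold higher in each animal. The genes with the smallest p were the metal transporter Slc11a1 with a log2 ratio of 1.83 (standard error 0.34), the acid phosphatase Acp5 with 2.21 (standard error 0.65) and the channel Mcoln3 with 2.86 (standard error 0.76), a relative of Mcoln1. Mcoln3 was low throughout, at 0.67, 1.70 and 7.26 normalized CPM in the lesions and 0.15, 0.35 and 0.32 in the control arteries. In the other direction, Ostm1, a partner of the lysosomal chloride transporter, had -0.435 and Siae, a sialic acid esterase, had -0.16. Of 13 cathepsins, 12 were above 0 and 4 were higher at an unadjusted p under 0.05, with the aspartic protease Ctsd at 1.80 (standard error 0.66) and the collagen-degrading Ctsk at 0.82 (standard error 0.27). None of these passed edgeR's test when adjusted over all genes. DESeq2 called 6 of the other lysosomal genes and 4 cathepsins higher at an adjusted p under 0.05, beside 5.48% of all genes. Of the lists that follow, DESeq2 called 2 V-ATPase genes and 2 MiT/TFE targets higher. It called 1 autophagy gene lower, beside 6.5% of all genes, and 0 genes of the sorting route and of mTORC1 in either direction.

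The proton pump, the sorting route, mTORC1, the MiT/TFE targets and autophagy were counted in the same way. Of 21 subunits of the V-ATPase, which acidifies lysosomes, 13 were above 0, and at an unadjusted p under 0.05 there was 1 subunit in each direction. These were Tcirg1, the pump subunit of osteoclasts and macrophages, with a log2 ratio of 1.0296 (standard error 0.49), and Atp6v0e2 with -0.73 (standard error 0.30). Of 13 genes of the mannose 6-phosphate and sorting route, 2 were higher and 0 lower, namely Gga2, a sorting adaptor, with 0.59 and Igf2r, a mannose 6-phosphate receptor, with 0.44. Of 17 genes of mTORC1 and the Rag complex, which hold Tfeb in the cytoplasm when nutrients are ample, 2 were higher by that rule, beside 8.63% of all genes, and 1 was lower, beside 12%. These were Lamtor4 and Lamtor3 with 0.33 and 0.42, and Tsc1 with -0.73. Of 14 targets of the MiT/TFE factors outside the hydrolases, 2 were higher and 0 lower, with Gpnmb, a glycoprotein of macrophages, at 3.35 (standard error 0.95) and the autophagosome protein Map1lc3b at 0.36 (standard error 0.06). The coactivator Ppargc1a in the same list was below 0, at -1.06 (standard error 0.27). Of 27 autophagy genes 1 was higher, which is the same Map1lc3b, and 1 lower, the initiation factor Atg13 with -0.87 (standard error 0.09). The medians of the mean ratios were 0.05, 0.12, 0.01, 0.21 and 0.02 for these 5 lists, in this order, beside 0.16 for the other lysosomal proteins and 0.67 for the cathepsins.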

How the data were processed

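Stranded mRNA libraries were made from the lesion and the control artery of each of 3 rats. The authors mapped reads to Rnor6 with the CLC workbench (the submitters' processing notes name CASAVA) and deposited, per gene and library, a raw count, an RPKM, a TPM and a scaled CPM, treated here as a signal because its totals differ. The authors' fold changes and p-values, which the table also holds, were not used. Strand use in the authors' counting is not stated in these sources, and Npc1, Gusb, Idua and Asah1 overlap a gene of the other strand.

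The main test of the deposited counts was the quasi-likelihood fit of edgeR 4.0.16 (R 4.3.3), with animals as blocks, TMM scaling and filterByExpr, which kept 15367 genes and all 38 lysosomal genes. Adjustment was by Benjamini-Hochberg over all of these, with calls under 0.05. The labels give a lesion and a control artery the same number, and the study took both tissues from the same animal. Same-numbered libraries were therefore treated as 1 animal. The correlations across genes of their deviations from the group means were 0.389, 0.3 and 0.0688 in animals 1, 2 and 3. Values between different animals are not given here, so these correlations do not settle the pairing. Log2 ratios used a prior count of 2, and the fold rule used ratios of normalized CPM over 1.5. The steps were checked on simulated data. DESeq2 (version 1.42.0), limma-voom (version 3.58.1), other scalings, filters, thresholds and each animal left out were alternatives. The smallest two-sided p of an exact test that exchanges tissues within animals is 0.25, so none was run. Per-library values were given for genes over 1.5-fold in all animals, the 3 highest, 3 lowest, 3 most abundant and 3 most variable, and the regulators, and for related lists up to 3 genes with the smallest p and up to 2 against the direction. The members and lists were chosen with earlier results of these data known.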

Additional observations from a re-analysis of the deposited data

How the results depend on the processing

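No lysosomal gene was called by edgeR under any other scaling, without the filter, without the replicate block or without any one animal (0 in each), nor by limma-voom, whereas DESeq2 called 11. At an unadjusted p under 0.05 the count higher was 13 without the replicate block and that lower was 1 in place of 2. Leaving out 1 animal moved the count higher between 4 and 15 and the count lower between 1 and 2. The count over 1.5-fold higher in every animal was 1. It was 2 with median-ratio size factors and without the filter, 7 at the lower fold threshold tried (with 1 lower in place of 0) and 0 at a 2-fold threshold. Without 1 animal it was 1 to 11, the highest without animal 1, and 0 to 1 were lower. Apart from DESeq2, shares of all genes were not computed under these alternatives, so the counts show only how far they moved. The median log2 ratio was 0.51, between 0.47 and 0.54 under the other settings, 0.66 without animal 1, 0.56 without animal 2 and 0.20 without animal 3.

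Of 342 log2 ratios of single genes under the alternatives, 333 kept their sign. Other scalings and prior counts moved most ratios little, so a sign could mainly change where an animal was left out. The ratios that changed sign were near 0 or rested on 1 animal. Aga had 0.016 with median-ratio factors. Without 1 animal, Aga lay between -0.12 and 0.12 (0.0010 without animal 1), Gla between -0.39 and 0.17, Tfe3 between -0.26 and 0.15, Lamp2 between -0.012 and 0.25, Sgsh between -0.048 and 1.09, Arsb between -0.064 and 0.51 and Ppt1 between -0.10 and 0.52. The lowest count of any of the genes in a library was 133, and every test rests on 3 pairs.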
